A study of Homo sapiens with 12 samples.

Results

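The 10 genes described here act in WNT signalling: the ligands WNT3, WNT4, WNT7B, WNT10A and WNT10B, the secreted inhibitors DKK1 and SFRP1, the related secreted protein DKK3, the nuclear factor LEF1 and the pathway target AXIN2. They were taken by symbol from a table of 61044 gene IDs, and all 10 were found. The rule is a list of names and holds no threshold on a value, but the names were chosen with earlier results of these data known. All 10 also passed the filter on low counts, which left 17532 genes to test. SFRP1 reached the filter's level only in the control libraries and WNT10B only in the hairpin libraries, so each passed through the groups in which it was high. DKK3 reached that level in the control libraries but with the hairpins only in libraries 1 and 2 of shRNA1, fewer than the filter asks for. It too passed through the group in which it was high.

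WNT ligands are lipid-modified secreted proteins that bind Frizzled receptors and LRP co-receptors at the cell surface. In the canonical branch this stops the destruction complex of AXIN, APC and GSK3 from degrading beta-catenin, which then joins TCF and LEF factors on DNA, and AXIN2 is a widely used readout of that step. Secreted Frizzled-related proteins bind WNT ligands, Dickkopf proteins of the DKK1 type block the LRP co-receptors, and several WNT ligands are normally made by stratified epithelia such as the oral mucosa.

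The cells were SCC-15, an established human line of oral squamous cell carcinoma, and their RNA was sequenced. The control group (NC) carried a negative-control short hairpin RNA, and the other groups carried 1 of 3 hairpins against FMOD, the gene of the matrix proteoglycan fibromodulin (shRNA1, shRNA2 and shRNA3). All 4 groups were grown in 6-well plates, taken for RNA after 48 hours, and represented by 3 libraries each, and no further allele or agent is labelled. The labels do not say how the hairpins were delivered, whether a group was a clone or a pool, or whether libraries of a group came from separate cultures, so the p-values measure only the spread between these libraries, which may be technical.

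Library totals lay between 17286934 and 19567192 estimated counts, and levels are given in CPM, a gene's counts relative to the total of its library, after TMM scaling, a correction for differences in RNA composition. FMOD itself was at the limit of detection, with 2, 2 and 3 counts in NC and 0 in each of the 9 shRNA libraries, so no fold is given for it. Its knockdown therefore cannot be checked from these data. Libraries 1 and 2 of shRNA3 stood apart from library 3 of the same group: their TMM scaling factors were 0.771 and 0.795 against 1.06, and their log2(CPM + 1) values correlated at 0.916 to 0.919 with library 3 but at 0.995 with each other. An NC library and a shRNA library correlated at 0.829 to 0.855, against 0.993 to 0.994 within NC (Pearson). All 9 squamous markers listed averaged at least 1 CPM in every group, with sums per library of 2354 to 2549.8 CPM in NC and 1572 to 2678 CPM with the hairpins. Single squamous markers differed in both directions: in NC, shRNA1, shRNA2 and shRNA3 the means were 1008, 21.4, 80.1 and 74.8 CPM for KRT5 and 322, 38.2, 53.4 and 66.0 CPM for CDH1, but 7.58, 55.4, 24.5 and 149 CPM for KRT14, 92.2, 284, 428 and 211 CPM for KRT6A, and 312, 647, 571 and 748 CPM for KRT17. Of 8 fibroblast markers, 4 averaged at least 1 CPM in NC and 1, 2 and 1 with the hairpins (sums of 56.8 to 59.7 and 15.6 to 86.6 CPM), with DCN and THY1 at 0 in NC. Of 5 blood and immune markers only CD68 reached 1 CPM in any group (sums of 53.9 to 72.2 CPM in NC and 44.0 to 235.6 CPM with the hairpins, PTPRC at 0 in NC), and of 4 endothelial markers CDH5 alone did so in every group (sums of 17.6 to 23.1 and 3.88 to 13.2 CPM, KDR at 0 with each hairpin). In the same order of groups, CDH5 averaged 17.3, 1.94, 2.53 and 1.35 CPM, VWF 2.02, 0.282, 0.340 and 0.524 CPM, and PECAM1 0.133, 2.60, 4.75 and 8.73 CPM. The part of these markers in the results was not tested.

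With every hairpin, WNT3, WNT10B and LEF1 were higher than in NC, and WNT4, WNT10A, DKK3 and SFRP1 were lower. WNT10B rose from 3 or 4 counts per library to a mean level per length below DKK1 and WNT7B only among the 10 genes, and DKK3 fell from 93.4 CPM to less than 1 CPM. DKK1 fell with shRNA2 and shRNA3 and not with shRNA1, WNT7B fell with shRNA1 and shRNA2, and AXIN2 passed the test with shRNA3 only. A gene passed where edgeR's quasi-likelihood F test gave a Benjamini-Hochberg adjusted p under 0.05 over all 17532 genes. With shRNA1, 8 of the 10 genes passed, against 57.4% of all genes tested, with 3 higher (26.8% of all genes) and 5 lower (30.6%). With shRNA2, 9 passed, against 53.0% of all genes, with 3 higher (24.6%) and 6 lower (28.4%). With shRNA3, 9 passed, against 53.9% of all genes, with 3 higher (26.4%) and 6 lower (27.6%). In 1 direction with all 3 hairpins, 7 of the 10 passed, against 35.7% of all genes, with 3 higher (16.0%) and 4 lower (19.7%). For the same 7 genes the NC libraries and the 9 shRNA libraries did not overlap, as for 44.8% of all genes, where the shRNA libraries were higher for 3 (19.0%) and lower for 4 (25.8%). The median log2 fold change of the 10 genes was -0.35, -0.84 and -1.59 with shRNA1, shRNA2 and shRNA3 (-0.34, -0.84 and -1.60 with genes at 0 set to their bound), beside -0.02, -0.05 and -0.03 over all genes. The 3 comparisons share their NC libraries and are therefore not independent, and with the choice of the 10 genes made as described, nothing particular to them is read from these shares. In RNA from whole cultures, fewer cells that express a gene and less RNA per cell cannot be told apart.

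**Figure D1:**
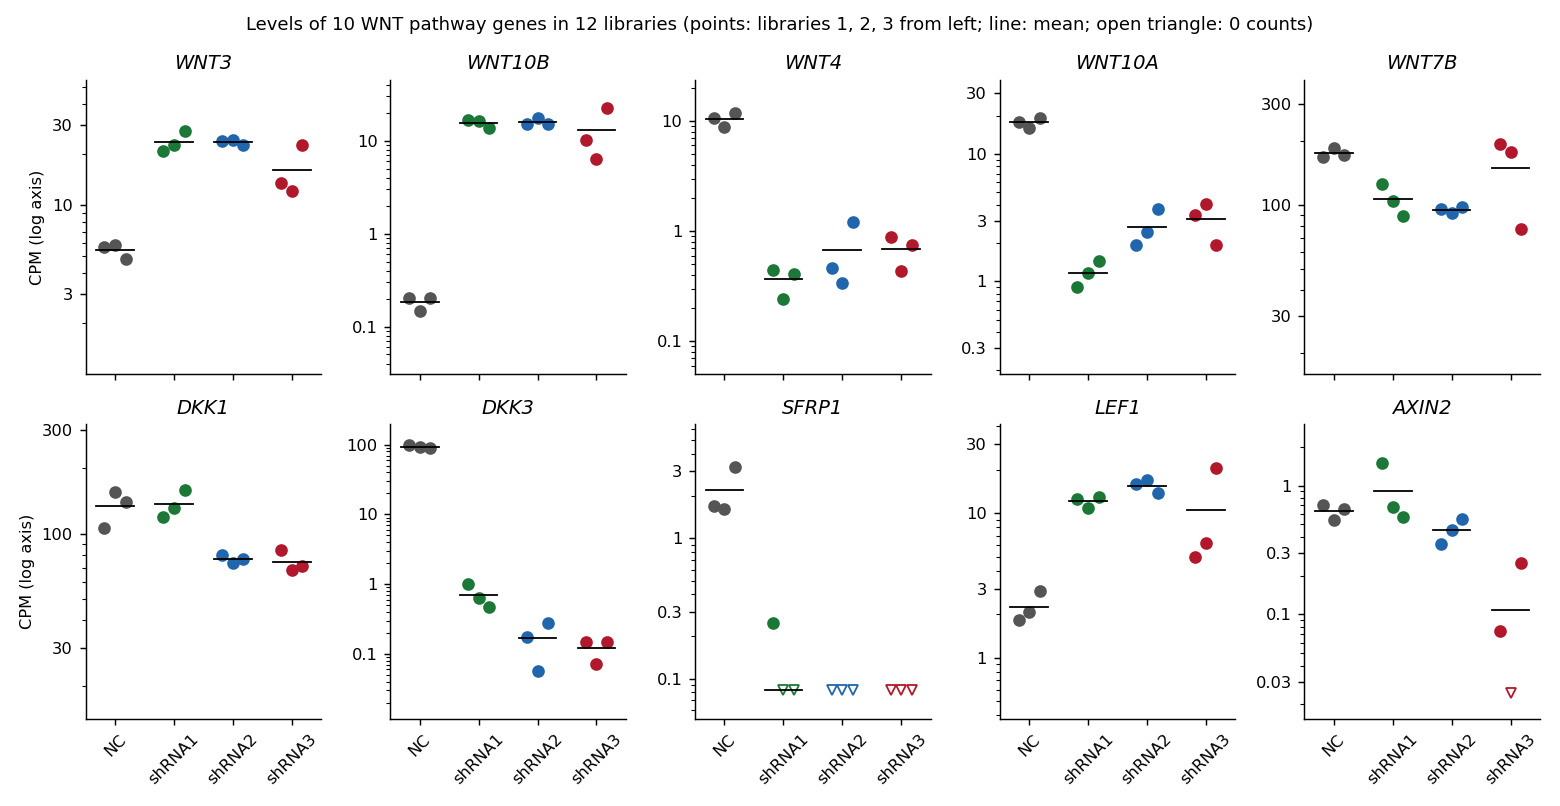
Level of each of the 10 genes in each library (vertical log axis, CPM), by group; points are libraries 1, 2 and 3 from left, lines are group means (n = 3) and open triangles are libraries with 0 counts. WNT10B lay between 0.148 and 0.203 CPM in NC and between 6.41 and 22.6 CPM with the hairpins, while DKK3 lay between 89.4 and 97.7 CPM in NC and at or below 0.994 CPM with them.

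Among the ligands that were higher with the hairpins, WNT3 (ENSG00000108379, chromosome 17, 46762506 to 46833154, minus strand, GRCh38) is a ligand of the canonical branch. Its level was 5.65, 5.81 and 4.81 CPM in the NC libraries. It was 21.1, 22.8 and 27.7 CPM with shRNA1, 24.2, 24.5 and 22.8 CPM with shRNA2, and 13.5, 12.1 and 22.9 CPM with shRNA3. All 9 shRNA libraries lay above all NC libraries, and libraries 1 and 2 of shRNA3 were the lowest of the 9. The log2 fold change against NC was 2.14 (SE 0.25, adjusted p = 2.88e-05, edgeR), 2.13 (SE 0.25, adjusted p = 2.99e-05) and 1.58 (SE 0.24, adjusted p = 0.000257) with shRNA1, shRNA2 and shRNA3. Without library 3 the value for shRNA3 was 1.23, and without libraries 1 and 2 it was 2.10, where the single library left is assumed to vary like the other groups.

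WNT10B (ENSG00000169884, chromosome 12, 48965340 to 48971763, minus strand), another canonical ligand, was nearly undetected in NC, with 4, 3 and 4 counts. These are 0.202, 0.148 and 0.203 CPM, and the exact 95% intervals of the shares (Clopper-Pearson, counting error only) reached up to 0.574 CPM of the raw total. With shRNA1 the level was 16.7, 16.3 and 13.5 CPM, with shRNA2 15, 17.7 and 15 CPM, and with shRNA3 10.2, 6.41 and 22.6 CPM. Every shRNA library was far above every NC library, and within shRNA3 library 3 was the highest and library 2 the lowest of all 9. The fitted rise was 81.5-fold (log2 6.35, SE 0.51, adjusted p = 2.17e-06, edgeR) with shRNA1, 83.5-fold (log2 6.38, SE 0.51, adjusted p = 2.16e-06) with shRNA2 and 68.9-fold (log2 6.11, SE 0.51, adjusted p = 3.06e-06) with shRNA3. The size of these folds rests on 11 counts over the NC group. For shRNA3 the log2 value was 5.44 without library 3 and 6.92 without libraries 1 and 2.

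WNT4 and WNT10A were the ligands that were lower with all 3 hairpins. WNT4 (ENSG00000162552, chromosome 1, 22117305 to 22143969, minus strand) is a ligand known from kidney and female reproductive tract development. Its level was 10.7, 8.76 and 11.9 CPM in NC. It was 0.447, 0.242 and 0.413 CPM with shRNA1, 0.468, 0.338 and 1.22 CPM with shRNA2, and 0.889, 0.437 and 0.744 CPM with shRNA3, or 5 to 22 counts per library. No shRNA library came near an NC library. The log2 fold changes were -4.81 (SE 0.49, adjusted p = 1.14e-05, edgeR), -3.93 (SE 0.46, adjusted p = 3.26e-05) and -3.90 (SE 0.46, adjusted p = 3.81e-05). The gene AL445253.1, on the opposite strand over WNT4, held at most 4 counts in any library, and whether the counting used strand is not given in the sources used here.

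WNT10A (ENSG00000135925, chromosome 2, 218880363 to 218899581, plus strand) is a ligand needed for teeth, hair and other skin appendages. Its level was 18.0, 16.1 and 19.2 CPM in NC. It was 0.895, 1.16 and 1.44 CPM with shRNA1, 1.93, 2.42 and 3.71 CPM with shRNA2, and 3.33, 4.08 and 1.94 CPM with shRNA3. The NC libraries were the 3 highest, and all shRNA1 libraries lay below all libraries of the other hairpins. The log2 fold changes were -3.92 (SE 0.36, adjusted p = 5.47e-06, edgeR), -2.72 (SE 0.34, adjusted p = 4.83e-05) and -2.52 (SE 0.34, adjusted p = 8.60e-05). Between hairpins, shRNA1 was lower than shRNA2 by a log2 difference of -1.20 (SE 0.34, adjusted p = 0.0436) and lower than shRNA3 by -1.40 (SE 0.35, adjusted p = 0.0152). The first of these calls held in only 1 of the 6 fits that left out 1 library of the pair (adjusted p up to 0.186), and the second in 3 of 6 (up to 0.0607).

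WNT7B (ENSG00000188064, chromosome 22, 45920362 to 45977129, minus strand), a ligand made by many epithelia, was the most abundant of the 5 ligands per length in every group. Its level was 169, 186 and 172 CPM in NC. It was 126, 105 and 88.8 CPM with shRNA1, 96.3, 91.7 and 97.8 CPM with shRNA2, and 195, 178 and 76.7 CPM with shRNA3. The shRNA1 and shRNA2 libraries lay below NC, whereas within shRNA3 libraries 1 and 2 lay among or above the NC libraries and library 3 was the lowest of all 12. The log2 fold changes were -0.72 (SE 0.27, adjusted p = 0.0414, edgeR), -0.88 (SE 0.27, adjusted p = 0.0184) and -0.23 (SE 0.27, adjusted p = 0.504). In the fit of all 12 libraries the shRNA1 and shRNA2 calls lay close to the threshold. Leaving out 1 library ended the shRNA1 call in 5 of 6 fits (adjusted p up to 0.133) and the shRNA2 call in 4 of 6 (up to 0.0583). With only the 6 libraries compared, both calls held (log2 fold changes -0.72 and -0.88, adjusted p = 0.000650 and 1.31e-09, edgeR). Of all genes, 12154 of 16931 and 13250 of 16736 passed in those fits. With shRNA3 the value was 0.09 (adjusted p = 0.536) without library 3, the opposite sign, and -1.16 (adjusted p = 7.12e-05) without libraries 1 and 2.

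Of the 5 ligand genes, 3 have another WNT gene within 100000 bases, which allows the change to be read beside that of a neighbour. WNT9B starts 46 bases from WNT3 on the other strand, and it held 2 counts over the NC group and 2 over all shRNA libraries while WNT3 was higher with each hairpin. WNT1 lies 6689 bases from WNT10B and had 0 counts in all 12 libraries. WNT6 lies 6129 bases from WNT10A on the same strand and averaged 0.435 CPM in NC (SD 0.11, n = 3). With shRNA1 and shRNA2 it did not pass (log2 fold changes -0.13 and 0.43, adjusted p = 0.823 and 0.438, edgeR), and with shRNA3 it was higher (1.95, SE 0.42, adjusted p = 0.00229), the opposite direction to WNT10A.

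RefSeq promoter sequence, taken here as 250 bases before to 50 after a start site on GRCh38.p14, was at hand for 5 of the 10 genes (WNT3, WNT4, WNT10A, DKK1 and LEF1). The windows of WNT3, WNT10A and DKK1 are printed as examples of 3 of the patterns seen: higher with all hairpins, lower with all hairpins, and lower with shRNA2 and shRNA3 alone. They lie at chr17:46818643-46818942 (minus strand), chr2:218880602-218880901 (plus) and chr10:52314031-52314330 (plus), and capitals mark CTTTG or its reverse complement CAAAG, the core letters of TCF and LEF binding sites.
WNT3: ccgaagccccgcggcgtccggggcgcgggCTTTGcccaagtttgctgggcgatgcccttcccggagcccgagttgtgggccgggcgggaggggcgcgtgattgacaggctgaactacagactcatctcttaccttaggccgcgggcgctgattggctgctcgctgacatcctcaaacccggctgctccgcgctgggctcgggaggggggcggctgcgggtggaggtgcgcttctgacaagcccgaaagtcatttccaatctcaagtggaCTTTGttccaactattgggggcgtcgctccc
WNT10A: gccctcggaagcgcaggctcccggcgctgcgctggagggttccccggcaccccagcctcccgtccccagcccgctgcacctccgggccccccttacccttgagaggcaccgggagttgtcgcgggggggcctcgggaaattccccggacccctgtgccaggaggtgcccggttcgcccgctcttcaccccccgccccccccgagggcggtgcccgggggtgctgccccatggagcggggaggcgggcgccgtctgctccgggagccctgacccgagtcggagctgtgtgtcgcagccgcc
DKK1: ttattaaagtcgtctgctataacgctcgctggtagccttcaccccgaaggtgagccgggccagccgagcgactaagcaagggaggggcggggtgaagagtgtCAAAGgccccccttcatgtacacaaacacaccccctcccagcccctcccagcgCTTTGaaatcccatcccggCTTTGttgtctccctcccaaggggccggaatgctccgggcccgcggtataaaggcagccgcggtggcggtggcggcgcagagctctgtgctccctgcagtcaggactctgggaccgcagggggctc
The WNT3 window held the core starting at -221 and +20 from the start site, the DKK1 window at -148, -95 and -76, and the WNT10A window nowhere. Of all 34943 promoters of this length, 47.5% held CTTTG on either strand, so a match is common. The longer CTTTGTT, which contains the core, was found at the WNT3 +20 and DKK1 -76 positions and in 5.21% of all promoters, and CTTTGAT in none of the 3 windows and in 2.63% of all. GC content was 65.7% for WNT3, 76.7% for WNT10A and 63.7% for DKK1, beside a median of 58.7%. These matches describe letters in a window and were not tested for binding. The WNT3 start site lies 14462 bases inside the gene as GENCODE release 29 draws it, and those of WNT10A and DKK1 lie 489 bases inside and 15 bases before.

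Of the secreted inhibitors and their relatives, DKK3 and SFRP1 were lower with all 3 hairpins and DKK1 with shRNA2 and shRNA3. DKK3 (ENSG00000050165, chromosome 11, 11963106 to 12009769, minus strand) is a divergent Dickkopf family member often silenced in cancers. The NC libraries held 97.7, 93.1 and 89.4 CPM, or 1937, 1892 and 1764 counts. The shRNA1 libraries held 20, 13 and 9 counts, the shRNA2 libraries 3, 1 and 5, and the shRNA3 libraries 2, 1 and 3. DKK3 was thus close to undetected with shRNA2 and shRNA3, and every shRNA1 library was above every library of those groups. The fitted fall was 133-fold (log2 -7.05, SE 0.34, adjusted p = 9.25e-08, edgeR) with shRNA1, 528-fold (log2 -9.05, SE 0.39, adjusted p = 4.04e-08) with shRNA2 and 703-fold (log2 -9.46, SE 0.41, adjusted p = 4.42e-08) with shRNA3. The last 2 folds rest on 9 and 6 counts over a group. Between hairpins, shRNA1 was higher than shRNA2 by a log2 difference of 1.99 (SE 0.43, adjusted p = 0.0145) and than shRNA3 by 2.40 (SE 0.47, adjusted p = 0.00689).

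SFRP1 (ENSG00000104332, chromosome 8, minus strand) encodes a secreted Frizzled-related protein that binds WNT ligands. It had 34, 33 and 64 counts in NC, or 1.71, 1.62 and 3.24 CPM. Library 1 of shRNA1 had 5 counts, and the other 8 shRNA libraries had 0. A count of 0 over a group allows a level of up to 0.0567 CPM for shRNA2 and 0.0633 CPM for shRNA3, the worth of 3 counts over its libraries. Against that floor SFRP1 was at least 38.7-fold lower with shRNA2 (adjusted p = 0.00235, edgeR) and at least 34.7-fold lower with shRNA3 (adjusted p = 0.00270). With shRNA1 the fitted fall was 24.5-fold (log2 -4.61, SE 1.0, adjusted p = 0.00563), which rests on the 5 counts of 1 library. The small genes that overlap SFRP1 had 0 counts in every library.

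DKK1 (ENSG00000107984, chromosome 10, 52314296 to 52318042, plus strand), the inhibitor that blocks LRP co-receptors and is itself induced by the pathway, had the highest mean level per length of the 10 genes in every group, though with shRNA3 its libraries overlapped with those of WNT7B. Its level was 107, 156 and 139.6 CPM in NC and 119, 132 and 159 CPM with shRNA1. It was 80.1, 73.6 and 76.2 CPM with shRNA2 and 84.3, 67.9 and 71.4 CPM with shRNA3. The shRNA1 libraries lay within and just above the range of NC, and the 6 libraries of the other hairpins lay below both. The log2 fold changes were 0.03 (SE 0.16, adjusted p = 0.903, edgeR), -0.81 (SE 0.16, adjusted p = 0.00158) and -0.85 (SE 0.17, adjusted p = 0.00118). The hairpins differed from each other, with shRNA1 higher than shRNA2 by 0.83 (SE 0.16, adjusted p = 0.0107) and than shRNA3 by 0.87 (SE 0.17, adjusted p = 0.00627). The antisense gene PRKG1-AS1, which overlaps DKK1, averaged 3.07, 2.98, 2.0 and 2.98 CPM in NC, shRNA1, shRNA2 and shRNA3 against 134, 137, 76.6 and 74.5 CPM for DKK1.

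**Figure D2:**
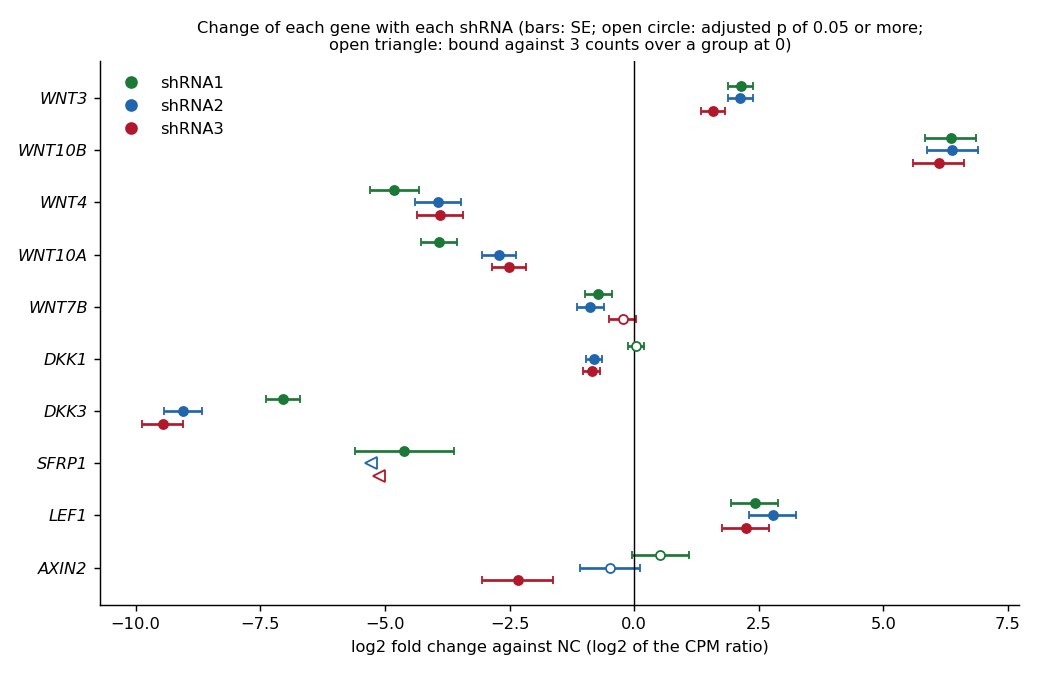
Log2 fold change of each of the 10 genes against NC (horizontal axis) with shRNA1, shRNA2 and shRNA3; bars are standard errors, open circles did not pass, and open triangles are bounds where a group had 0 counts. WNT3, WNT10B and LEF1 lie right of 0 with every hairpin, DKK3 lies between -7.05 and -9.46, and DKK1 and AXIN2 lie apart between hairpins.

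LEF1 (ENSG00000138795, chromosome 4, 108047545 to 108168956, minus strand) encodes the DNA-binding partner of beta-catenin and is also a target of the pathway. Its level was 1.82, 2.07 and 2.89 CPM in NC. It was 12.5, 10.9 and 12.9 CPM with shRNA1, 15.9, 16.9 and 13.7 CPM with shRNA2, and 4.96, 6.26 and 20.5 CPM with shRNA3. All shRNA libraries lay above NC, and within shRNA3 libraries 1 and 2 were the lowest of the 9 and library 3 the highest. The log2 fold changes were 2.42 (SE 0.47, adjusted p = 0.00106, edgeR), 2.78 (SE 0.47, adjusted p = 0.000478) and 2.24 (SE 0.47, adjusted p = 0.00188). For shRNA3 the value was 1.31 without library 3 and 3.21 without libraries 1 and 2. The overlapping antisense gene LEF1-AS1 held at most 3 counts in any library.

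AXIN2 (ENSG00000168646, chromosome 17, 65528563 to 65561647, minus strand), a scaffold of the destruction complex and negative feedback target, was scarce in every group. It had 14, 11 and 13 counts in NC, 30, 14 and 11 with shRNA1, 6, 8 and 10 with shRNA2, and 1, 0 and 5 with shRNA3. The shRNA1 libraries lay across and above the NC range, which was 0.541 to 0.706 CPM. The shRNA2 libraries lay below that range (0.351 and 0.451 CPM) or at its lower edge (0.553 CPM), and the shRNA3 libraries were the 3 lowest of all. The log2 fold changes were 0.52 (SE 0.57, adjusted p = 0.460, edgeR), -0.48 (SE 0.60, adjusted p = 0.525) and -2.34 (SE 0.72, adjusted p = 0.0164). AXIN2 was higher with shRNA1 than with shRNA3 by a log2 difference of 2.85 (SE 0.70, adjusted p = 0.0153). The shRNA3 call was lost without library 1 (adjusted p = 0.0575) and without libraries 1 and 2 (-1.30, adjusted p = 0.176), and the value was -3.88 (adjusted p = 0.00242) without library 3. A change with shRNA1 or shRNA2 was not detectable at this depth. The overlapping gene AC004805.1, on the same strand, held at most 1 count in any library.

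Because AXIN2 serves as the readout of the pathway, the tested genes outside the WNT lists whose pattern was nearest to it were named, by the root mean square difference of the 4 group means of log2(CPM + 1), each centred on its mean. They were C17orf107 (difference 0.0143), an ID with no symbol, ENSG00000255639 (0.0193), and YTHDF1 (0.0202), which encodes a reader of methylated RNA. C17orf107 averaged 0.766, 1.04, 0.617 and 0.205 CPM in NC, shRNA1, shRNA2 and shRNA3, beside 0.635, 0.912, 0.452 and 0.107 CPM for AXIN2. In the same order of groups, ENSG00000255639 averaged 14.7 (SD 6.67, n = 3), 17.3, 13.3 and 9.41 CPM, and YTHDF1 133, 158, 116 and 91.4 CPM. Adding 1 CPM before the log shrinks the differences of genes below 1 CPM, such as AXIN2. The likeness is a description over 4 group means on that scale and not a likeness of fold changes.

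Between hairpins, 3 of the 10 genes passed for shRNA1 against shRNA2 (WNT10A lower, DKK1 and DKK3 higher with shRNA1), where 12.3% of all genes did, 5.78% as higher and 6.53% as lower. For shRNA1 against shRNA3 there were 4 (the same genes, and AXIN2 higher with shRNA1), where 30.0% of all genes passed, 11.9% as higher and 18.1% as lower. For shRNA2 against shRNA3 edgeR called 0, where 8.34% of all genes passed (1.91% as higher and 6.43% as lower). DESeq2 also called 0, where 21.6% of all genes passed. In edgeR 3 of the 10 (WNT3, WNT7B and AXIN2) had an unadjusted p under 0.05, as did 5592 of all 17532 genes. Several of these calls ended when a single library was left out. For shRNA1 against shRNA2, 1, 0 and 1 genes passed without shRNA2 libraries 1, 2 and 3, where 3.36%, 3.62% and 3.06% of all genes did, and 1 passed without shRNA1 library 1 (3.98%). The DKK1 call ended without shRNA2 library 2 or 3, and the DKK3 call without shRNA1 library 1 or shRNA2 library 1 or 2. With only the 6 libraries compared, 2 genes passed for shRNA1 against shRNA2, where 41.0% of all genes did, and with DESeq2 3 passed (19.8%). For shRNA1 against shRNA3 the DKK1 and DKK3 calls held in all 6 such fits. Leaving out library 3 of shRNA3 raised the number that passed to 8 for shRNA1 against shRNA3 and to 5 for shRNA2 against shRNA3, but 63.4% and 59.2% of all genes then passed, so these numbers lie near the background. Without libraries 1 and 2 of shRNA3, 1 and 0 passed, where 8.10% and 1.28% of all genes did. WNT10B and WNT4 did not pass in any of these pairs: their log2 differences for shRNA1 against shRNA2 were -0.03 (SE 0.36) and -0.87 (SE 0.50). A p that misses the threshold does not show that hairpins act alike.

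Per kilobase of annotated exon, which allows levels of different genes to be compared, DKK1 led in NC with 60.8 CPM per kb (SD 11.4, n = 3). WNT7B (34.7, SD 1.79), DKK3 (18.5, SD 0.822), WNT10A (5.21, SD 0.453), WNT4 (2.31, SD 0.346) and WNT3 (1.25, SD 0.123) followed. SFRP1 (0.461, SD 0.191) and LEF1 (0.421, SD 0.105) did not differ beyond their spread, and AXIN2 (0.122, SD 0.0163) and WNT10B (0.0700, SD 0.0120) were last. With each hairpin the order of the means began with DKK1, WNT7B, WNT10B, WNT3 and LEF1. WNT10B then held 5.90 (SD 0.668), 6.05 (SD 0.586) and 4.97 (SD 3.21) CPM per kb with shRNA1, shRNA2 and shRNA3, and WNT3 held 5.5 (SD 0.792), 5.5 (SD 0.207) and 3.73 (SD 1.35). With shRNA1 and with shRNA3 the libraries of WNT10B and WNT3 overlapped on this scale, so the order of the pair is not beyond their spread there. With shRNA3, WNT7B (38.5, 35.3 and 15.2 CPM per kb in libraries 1, 2 and 3) was above DKK1 (38.2, 30.8 and 32.4) in libraries 1 and 2. LEF1 (0.926, 1.17 and 3.83) was likewise below WNT10A (0.977, 1.20 and 0.567) in both, so neither of these pairs has an order beyond its spread there. The ranges of LEF1 and WNT3 (2.79 to 5.28) overlapped as well, but WNT3 was above LEF1 in each of the 3 shRNA3 libraries.

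**Figure D3:**
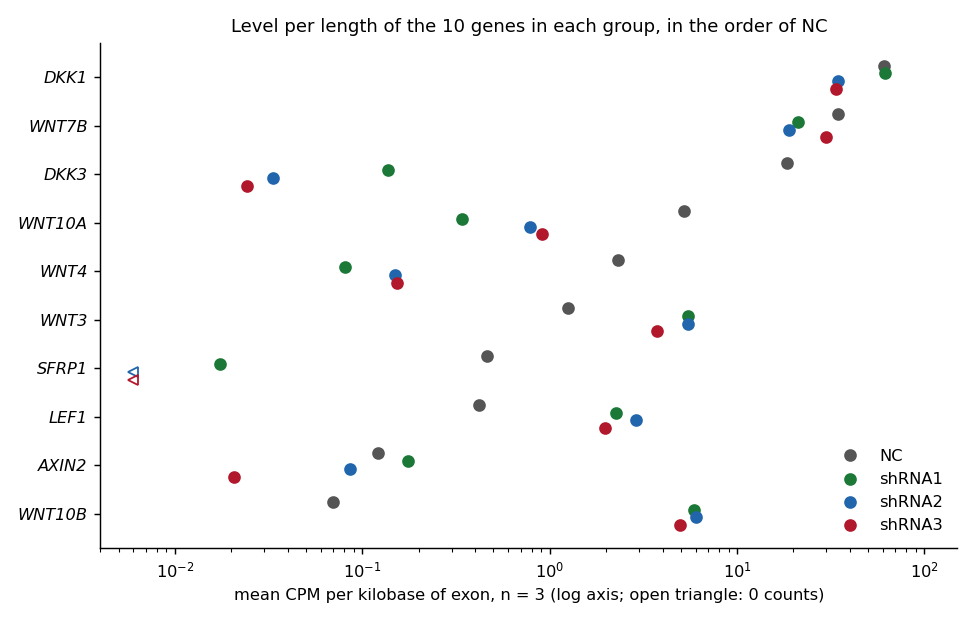
Mean CPM per kilobase of exon (horizontal log axis, n = 3 libraries) of the 10 genes in each group, ordered from top by the level in NC; open triangles mark 0 counts. WNT10B is last in NC at 0.0700 and behind only DKK1 and WNT7B with each hairpin, at 4.97 to 6.05, while DKK1 and WNT7B stay the highest in every group.

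The other genes of the pathway were taken from lists of 87 genes in 8 roles, where NOTUM, LGR5, RNF43, ZNRF3 and TCF7 each have 2 roles, the second as a target. Of these, 67 passed the filter and 6 were at 0 in all libraries. With shRNA1 15 were higher and 22 lower, with shRNA2 15 and 25, and with shRNA3 18 and 23, and 12 were higher and 15 lower with all 3. Over all genes, 24.6% to 26.8% were higher and 27.6% to 30.6% lower with a given hairpin, and 16.0% and 19.7% with all 3. The counts by role are small and are to be read beside these shares, and nothing particular to a role is read from them. Among the 67, FZD10, FZD8 and SOST (0, 19 and 3 counts over NC) reached the filter's level only in hairpin libraries. WNT5A, RSPO4 and TNFRSF19 (at most 4 counts over a hairpin group) did so only in NC. These genes, and any like them, passed the filter through the groups in which they were high. The median log2 fold change over the 67 was -0.23, -0.40 and -0.26, beside -0.02, -0.05 and -0.03 over all genes. The 20 genes named below are those with the largest change in the hairpin that changed them least, among genes that passed with all 3 hairpins in 1 direction, averaged at least 1 CPM and had no overlap between NC and shRNA libraries.

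**Figure D4:**
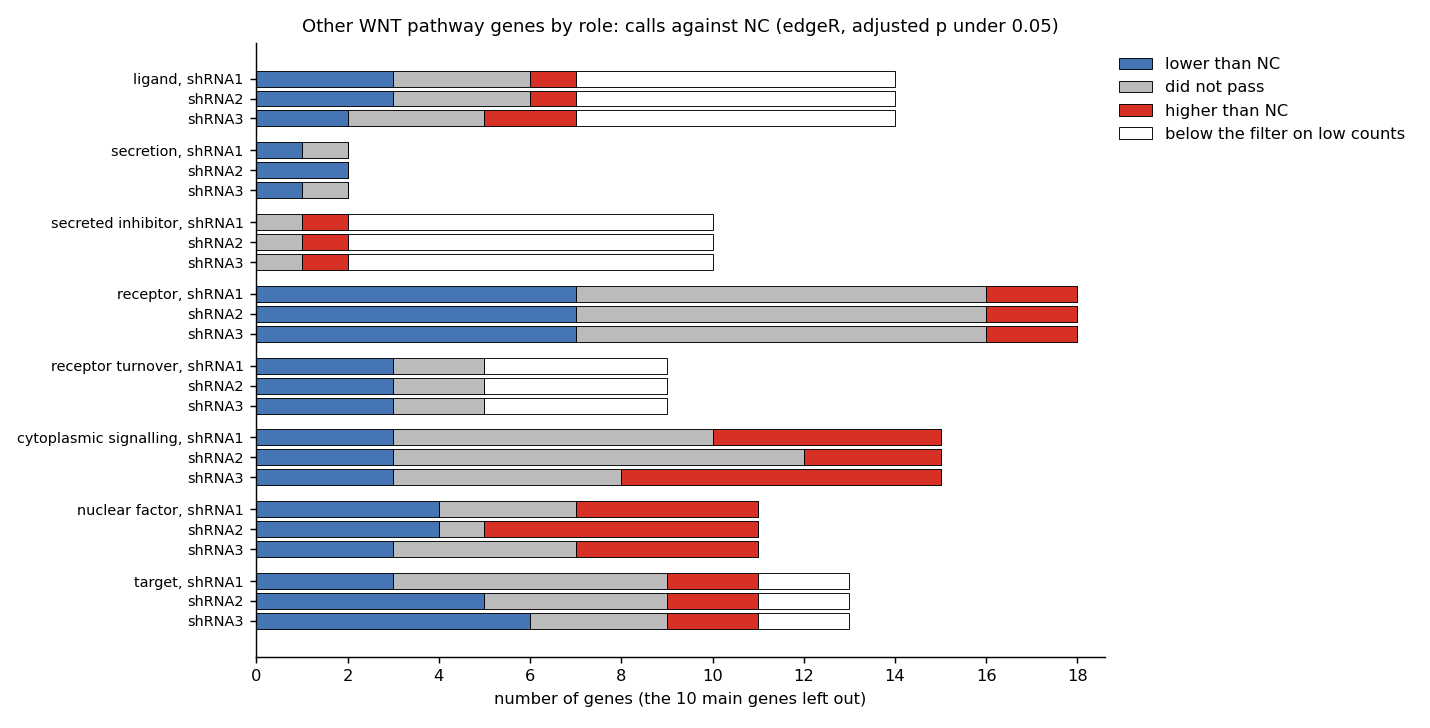
Number of other pathway genes (horizontal axis) in each role that were lower, did not pass, were higher, or fell below the filter on low counts, for each hairpin against NC. All 3 receptor turnover genes that passed were lower with every hairpin, and of 18 receptors 7 were lower and 2 higher with each, where 27.6% to 30.6% of all genes were lower and 24.6% to 26.8% higher.

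Of 14 further ligands 7 were tested, and of these 1 was higher and 2 lower with all 3 hairpins (16.0% and 19.7% of all genes). WNT5A, the main ligand of the branch that does not use beta-catenin, averaged 8.14 CPM in NC (SD 1.08, n = 3). It had 0 counts with shRNA1 and shRNA2, at least 163-fold and 144-fold lower, and 1 count over the shRNA3 group. WNT9A rose from 4.08 CPM (SD 0.0699) to 40.8, 17.6 and 20.6 CPM, with log2 fold changes of 3.32, 2.11 and 2.34. WLS, which carries WNT proteins to the cell surface, fell from 42.2 CPM (SD 1.97) to 14.6, 16.0 and 14.5 CPM, and PORCN, the enzyme that attaches their lipid, passed with shRNA2 only (log2 fold change -0.79, adjusted p = 0.0255, edgeR).

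All 18 receptors and co-receptors listed were tested. FZD10 had 0 counts in NC and averaged 12.4, 22.0 and 15.3 CPM with the hairpins, at least 248-fold, 440-fold and 305-fold higher. FZD8, another Frizzled receptor, rose from 0.316 CPM (SD 0.155) to 29.8, 11.6 and 8.71 CPM, and its shRNA3 libraries spread from 2.11 to 21.7 CPM. PTK7, a pseudokinase co-receptor of planar cell polarity, fell from 206 CPM (SD 20.5) to 0.876, 1.26 and 2.07 CPM. KREMEN1, a receptor that works with DKK1, fell from 118 CPM (SD 7.83) to 13.4, 44.2 and 46.9 CPM. The main co-receptors moved less: LRP6 did not pass with any hairpin (log2 fold changes 0.21, 0.00 and -0.33) and LRP5 passed with shRNA1 only (-1.27, adjusted p = 0.000447, edgeR).

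Of 9 genes of receptor turnover, 5 were tested and 3 were lower with all hairpins (19.7% of all genes). LGR4, a receptor of R-spondins, fell from 92.5 CPM (SD 7.45) to 38.3, 41.8 and 29.2 CPM. RNF43, a ligase that removes Frizzled receptors, fell from 33.2 CPM (SD 3.51) to 14.3, 17.6 and 17.1 CPM. RSPO4, an R-spondin, fell from 4.04 CPM (SD 0.223) to 0 counts with shRNA1 and shRNA2, at least 81.1-fold and 71.3-fold lower, and to 3 counts with shRNA3. The related ligase ZNRF3 did not pass with any hairpin (log2 fold changes 0.47, -0.04 and -0.33).

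All 15 cytoplasmic signalling genes were tested, and 3 were higher and 2 lower with all hairpins (16.0% and 19.7% of all genes). CTNNB1, the gene of beta-catenin, rose from 213 CPM (SD 14.5) to 491, 444 and 445 CPM, with log2 fold changes of 1.20, 1.06 and 1.06 (SE 0.13 each; adjusted p = 1.80e-05, 4.55e-05 and 4.67e-05, edgeR). APC2, a relative of APC, rose from 1.63 CPM (SD 0.231) to 9.97, 9.86 and 7.26 CPM. GSK3A, a kinase of the destruction complex, rose from 73.7 CPM (SD 3.42) to 144, 132 and 203 CPM. These are transcript levels, and the amount or location of beta-catenin protein was not measured.

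All 11 further nuclear factors were tested. LEF1 and its relative TCF7L2 (log2 fold changes 0.79, 0.96 and 1.46) were higher, and the relatives TCF7 and TCF7L1 were lower. TCF7 fell from 10.9 CPM (SD 1.77) to 0.897, 1.02 and 0.278 CPM, with log2 fold changes of -3.59, -3.41 and -5.21. TCF7L1 fell from 14.1 CPM (SD 1.07) to 0.798, 1.24 and 0.752 CPM, with log2 fold changes of -4.13, -3.50 and -4.21. Of the TLE co-repressors, TLE4 fell from 24.3 CPM (SD 3.83) to 2.47, 1.91 and 3.79 CPM, and TLE3 rose from 39.9 CPM (SD 3.90) to 112, 119.6 and 148 CPM.

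Among 13 other genes listed as targets, 11 were tested, and 2 were higher and 3 lower with all hairpins (16.0% and 19.7% of all genes). NKD2, a feedback inhibitor that binds Dishevelled, rose from 2.39 CPM (SD 0.529) to 35.3, 34.7 and 39.8 CPM. MYC, a target of many pathways besides this one, rose from 76.9 CPM (SD 9.39) to 484, 683 and 977 CPM. TNFRSF19, a receptor induced by beta-catenin, fell from 6.92 CPM (SD 1.09) to 1, 4 and 0 counts over the 3 groups. The other genes that were lower with all hairpins, TCF7 and RNF43, are described above, while NKD1 (log2 fold changes -1.16 and -1.52) and CCND1 (-1.09 and -0.68) passed as lower with shRNA2 and shRNA3 and SP5 (-1.34) with shRNA3 only, and ZNRF3, BAMBI and NOTUM did not pass with any hairpin.

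**Figure D5:**
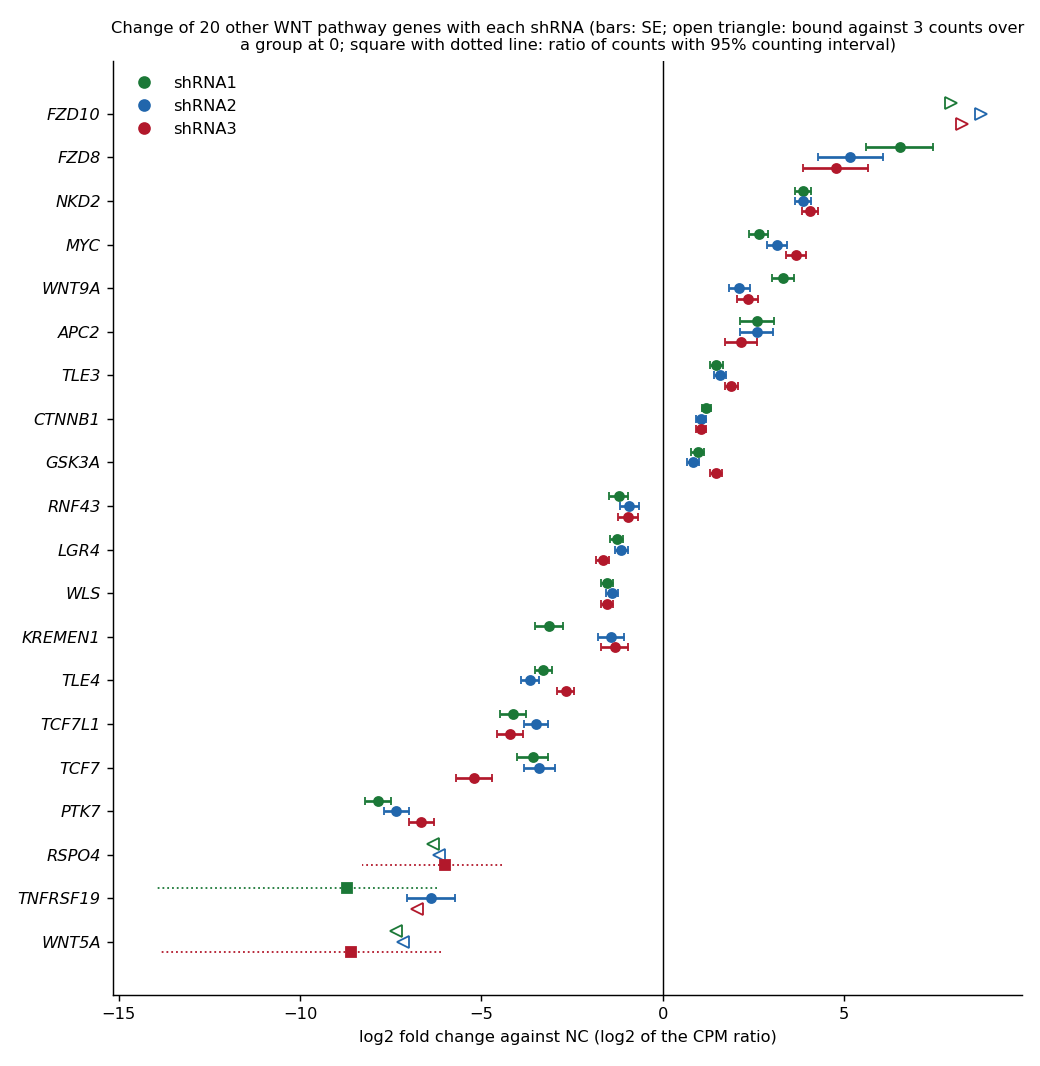
Log2 fold change against NC (horizontal axis) of the 20 other pathway genes named; bars are standard errors, open triangles are bounds where a group had 0 counts, and squares with dotted lines are ratios of counts with 95% counting intervals. The 9 genes at the top were higher and the 11 at the bottom lower with every hairpin, from FZD10 at the top to WNT5A at the bottom.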

How the data were processed

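Per the labels' protocols, SCC-15 cells were harvested after 48 hours and libraries were made with the NEBNext Ultra kit. The submitters' processing notes name HISAT2, HTSeq 0.11.2 and GRCh38. The authors deposited raw estimated counts: 1 value per gene and library, made by that processing, with no scaling and with 13.8% of values not whole. The annotation, filters and use of strand are not given in the sources used here. Symbols were found for 60463 of 61044 IDs, and positions and exon lengths were taken from GENCODE release 29 on GRCh38. Promoters came from RefSeq on GRCh38.p14.

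Counts were rounded. Groups and replicate numbers came from the sample titles, and 0 columns were left unmatched. Genes were kept with edgeR's filterByExpr (minimum count 10, total 15) and scaled by TMM (factors 0.771 to 1.11). All 12 libraries entered 1 edgeR quasi-likelihood model of 4 groups (R 4.3.3, edgeR 4.0.16, limma 3.58.1, robust fit, two-sided F test, 8 residual degrees of freedom and a common biological coefficient of variation of 0.289), with Benjamini-Hochberg adjustment over all 17532 genes and a threshold of 0.05. The SE of a log2 fold change is its absolute value over the square root of F. The fit was also run on simulated counts, in which few genes differed, in shRNA1 alone, and all genes shared the common dispersion. In the data, 53.0% to 57.4% of genes passed against NC, so that run gives no error rate for these results. A fold against a group at 0 is a bound at 3 counts over that group, and with 1 to 3 counts a ratio with a 95% counting interval. Reads here carry no molecular identifiers and are not independent molecules, so these floors and intervals hold counting error alone. Replicate pairs differed by more than sampling noise (chi-square per gene 3.40 to 215), so none were merged.

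The 10 genes, the pathway lists and the marker lists were chosen with earlier results of these data known. Other pathway genes were named by the rule given beside them, and 25 met it, of which at most 20 were named. Alternatives were DESeq2 size factors, no filter, a mean of at least 50 counts, the DESeq2 Wald test (DESeq2 1.42.0), a replicate block, only the 6 libraries compared, a log2 fold change of at least 1 as well, each library left out, and shRNA3 libraries 1 and 2 both left out.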

Additional observations from a re-analysis of the deposited data

Results flagged for a closer look

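In 7 cases the test of the difference between hairpins itself passed for a WNT gene, which compares the response to 1 hairpin with that to another (edgeR, adjusted p under 0.05, all 12 libraries). The log2 difference in WNT10A was -1.20 for shRNA1 against shRNA2 (adjusted p = 0.0436) and -1.40 for shRNA1 against shRNA3 (adjusted p = 0.0152). In DKK1 it was 0.83 (adjusted p = 0.0107) and 0.87 (adjusted p = 0.00627), and in DKK3 it was 1.99 (adjusted p = 0.0145) and 2.40 (adjusted p = 0.00689). In AXIN2 it was 2.85 for shRNA1 against shRNA3 (adjusted p = 0.0153), on counts of 55 and 6 over the groups. In each case the 3 libraries of shRNA1 and the 3 of the other hairpin did not overlap. The cases were chosen by a test of these same libraries, so this is no separate support. Lack of overlap was also seen where the test did not pass. This held for LEF1 and AXIN2 in shRNA1 against shRNA2 (adjusted p = 0.637 and 0.299, edgeR) and for AXIN2 in shRNA2 against shRNA3 (0.116). The share of all genes without overlap was not counted for pairs of hairpins. DKK3 was lower than in NC with every hairpin, so its difference is one of degree, whereas the shRNA1 libraries of DKK1 lay within and just above the range of NC. Only the DKK1 and DKK3 calls for shRNA1 against shRNA3 held in all 6 fits that left out 1 library of the pair. The other calls for shRNA1 against shRNA3 held in 3 (WNT10A) and 4 (AXIN2) of 6, and those for shRNA1 against shRNA2 in 1 (WNT10A), 4 (DKK1) and 3 (DKK3) of 6. With only the 6 libraries compared, no gene at all passed for shRNA1 against shRNA3. For shRNA1 against shRNA2, 2 of the 10 genes and 41.0% of all genes passed in that setting. The 3 hairpins are aimed at the same gene, and FMOD had 0 counts in all their libraries, so the depth of knockdown cannot be compared between them here. The cause of these differences was not tested.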

How the results depend on the processing

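The 7 genes that passed with all 3 hairpins in 1 direction numbered 7 in every fit that left out 1 library, and the counts against NC ranged from 7 to 8 for shRNA1, 8 to 9 for shRNA2 and 8 to 9 for shRNA3. Over all genes, 8677 (of 18039) to 9698 (of 18263) then passed with shRNA1 and 7960 (of 18039) to 8174 (of 18064) with shRNA2. With shRNA3, 8314 (of 18039) to 13330 (of 18242) passed, the most without shRNA3 library 3. For all 3 hairpins in 1 direction this number was not counted. Of the values of single genes against NC, 344 kept their direction and their side of the threshold under the alternatives, 12 lost the call, 1 gained it and 7 changed sign. Counts between hairpins were less stable. Leaving out 1 library gave 0 to 3 genes for shRNA1 against shRNA2, 2 to 8 for shRNA1 against shRNA3 and 0 to 5 for shRNA2 against shRNA3. The share of all genes that passed was then 3.06% to 15.3%, 9.80% to 63.4% and 0% to 59.2%. The highest count came without shRNA1 library 3 for the first pair and without shRNA3 library 3 for the other pairs. With only the 6 libraries compared, 2 genes passed for shRNA1 against shRNA2, where 41.0% of all genes did. For shRNA1 against shRNA3 the count was 0 with only the 6 libraries compared, where 0 of all 15326 genes tested passed (4295 had an unadjusted p under 0.05), and 1 without both shRNA3 libraries 1 and 2 (8.10% of all genes). The sign changed for WNT7B with shRNA3 (-0.39 to 0.09 when 1 library was left out, 0.09 without shRNA3 library 3), for AXIN2 with shRNA1 (-0.02 to 0.77, the lowest without shRNA1 library 1) and for DKK1 with shRNA1 (-0.11 to 0.15, below 0 without NC library 1 or shRNA1 library 3). The value of DKK1 with shRNA1 was also just below 0 (0.00) with DESeq2 size factors and in the DESeq2 Wald test, and -0.07 with a mean of at least 50 counts. AXIN2 with shRNA3 missed the threshold with only the 6 libraries compared (adjusted p = 0.0518). The cause was not tested. Replicate numbers 1 to 3 recur across groups, but libraries of the same number did not deviate together (mean correlation -0.0107 over 18 pairs, 0.00443 over 36 pairs of different numbers, and 3 of 12 libraries correlated best with their own number). With a replicate block, 8, 9 and 9 of the 10 genes passed against NC, and 7 with all hairpins in 1 direction. Between hairpins, 2, 4 and 0 passed, where 8.54%, 25.4% and 2.16% of all genes did. Of the other pathway genes, 37, 41 and 42 passed against NC and 29 with all hairpins in 1 direction. In that fit 9689, 8949 and 9116 of all 17532 genes passed against NC. The number for all hairpins in 1 direction was not counted over all genes. Another scaling moved the median of all genes by at most 0.041 in size on the log2 scale (-0.041 for shRNA2 against NC). Both scalings place most genes near no change, so their closeness does not test that assumption. AXIN2, SFRP1, DKK3 with the hairpins and WNT10B in NC rest on few counts, which limits their fold changes most.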

Other observations

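Of the 27 other pathway genes that passed with all 3 hairpins in 1 direction, 7 were not among the 20 named by the rule. TCF7L2 stands beside LEF1 in the report and the other 6 are given here, all named after their values were seen. WNT3A, a canonical ligand, fell from 2.47 CPM in NC (SD 0.633, n = 3) to 0.216, 0.474 and 0.352 CPM with shRNA1, shRNA2 and shRNA3 (edgeR, adjusted p = 0.000250, 0.00214 and 0.000968). WNT9A, its neighbour on chromosome 1, was higher with every hairpin. SOST, a secreted inhibitor of LRP co-receptors, rose from 3 counts over the NC group to 15, 72 and 23 counts, in contrast to DKK3 and SFRP1. BCL9L, a co-activator of beta-catenin, was higher (log2 fold changes 1.13, 0.50 and 1.17). CTNNBIP1, which encodes an inhibitor of the binding of beta-catenin to TCF factors, was lower (-1.84, -1.21 and -0.67). The receptor gene FZD2 (-0.82, -0.58 and -0.77) and TNKS, an enzyme that promotes turnover of AXIN proteins (-0.89, -0.70 and -0.55), were also lower.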
